A study of Homo sapiens with 12 samples.

Results

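The interferon-stimulated genes described here are 43 transcripts that cells raise when interferon binds its receptors. They were named by symbol in the platform's gene table, out of 18132 genes that have a probe set with a single symbol. Each gene was read from 1 probe set, the one with the highest mean over all arrays. Such a probe set was found for 41 of the 43, and all 41 passed the filter on low signal, as did 13909 genes in all. STAT2, a subunit of the interferon-activated transcription factor, and USP18, a protease that removes ISG15 from proteins and dampens the receptor, had no probe set with a single symbol and are not measured here. The genes were listed by symbol and not by a measured value, but earlier results of these data were known when they were chosen.

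Messenger RNA of THP-1 cells, a human monocytic leukaemia line, was measured on 12 PrimeView arrays in 4 groups of 3. The first group received a thermomiR inhibitor, meant to block a temperature-responsive microRNA, and the second is its control. By the protocol, both were differentiated at 40 °C, given a hairpin inhibitor and a GFP plasmid by nucleofection, and sorted as GFP-expressing cells 24 hours later. The third group is labelled 40 °C and the fourth 37 °C; these cells were not described as nucleofected. All were turned into macrophage-like cells with 100 ng/ml of the phorbol ester PMA, given for 48 hours in the growth protocol. The labels call the inhibitor cells siRNA and siThermomir and their controls WT, and do not state which microRNA was blocked, whether the controls received the non-human control inhibitor, or at which of the described times the 40 °C cells were harvested. No interferon was added in any group, as far as the protocols say. All cells come from 1 cell line. Whether replicates were grown separately is not stated, so the p-values refer to the spread among the arrays of a group, and that spread may be technical.

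Type I and type III interferons act through receptors that bind the kinases JAK1 and TYK2. These phosphorylate STAT proteins, which join IRF9 and bind a promoter element called the interferon-stimulated response element (ISRE). The genes turned on this way encode sensors of viral RNA, enzymes that degrade or modify RNA, proteins that stop virus entry or release, and the ubiquitin-like modifier ISG15 with its conjugating enzymes. IRF7, itself induced, raises interferon production and so feeds the response. Macrophages keep many of these transcripts at a measurable level without infection.

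Promoter sequences are shown for 7 of the genes. On the probe sets used, 3 of them fell furthest with the inhibitor (IFI27, IFI44L and EPSTI1) and 2 did not fall (RSAD2 and ISG15). The neighbours HERC5 and HERC6, which moved apart at 40 °C, are shown as well. Each run holds the 300 bases that begin 250 bases before an annotated start site, from RefSeq on GRCh38.p14, written 5′ to 3′ on the gene's strand, with matches to the ISRE letters GAAANNGAAA, on either strand, in capitals. The windows lie at chr14:94110486-94110785 (+) for IFI27, chr1:78620198-78620497 (+) for IFI44L, chr13:42992192-42992491 (−) for EPSTI1, chr2:6877527-6877826 (+) for RSAD2, chr1:1013247-1013546 (+) for ISG15, chr4:88456869-88457168 (+) for HERC5 and chr4:88378602-88378901 (+) for HERC6.
IFI27: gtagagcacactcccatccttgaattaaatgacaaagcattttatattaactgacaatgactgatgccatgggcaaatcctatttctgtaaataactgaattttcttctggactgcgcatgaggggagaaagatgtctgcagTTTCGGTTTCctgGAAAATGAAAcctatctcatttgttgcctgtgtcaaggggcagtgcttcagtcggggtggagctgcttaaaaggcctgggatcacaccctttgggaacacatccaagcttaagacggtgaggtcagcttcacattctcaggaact
IFI44L: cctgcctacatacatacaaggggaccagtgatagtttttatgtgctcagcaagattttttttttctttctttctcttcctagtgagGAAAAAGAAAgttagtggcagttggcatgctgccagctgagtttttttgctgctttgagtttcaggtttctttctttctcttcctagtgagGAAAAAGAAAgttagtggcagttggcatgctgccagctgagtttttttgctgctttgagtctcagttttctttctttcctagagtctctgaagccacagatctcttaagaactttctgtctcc
EPSTI1: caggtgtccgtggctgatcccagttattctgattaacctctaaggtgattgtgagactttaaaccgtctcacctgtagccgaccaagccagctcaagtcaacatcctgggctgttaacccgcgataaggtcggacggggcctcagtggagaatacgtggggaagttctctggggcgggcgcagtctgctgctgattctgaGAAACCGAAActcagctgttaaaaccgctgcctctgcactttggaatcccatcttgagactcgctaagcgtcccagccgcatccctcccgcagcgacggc
RSAD2: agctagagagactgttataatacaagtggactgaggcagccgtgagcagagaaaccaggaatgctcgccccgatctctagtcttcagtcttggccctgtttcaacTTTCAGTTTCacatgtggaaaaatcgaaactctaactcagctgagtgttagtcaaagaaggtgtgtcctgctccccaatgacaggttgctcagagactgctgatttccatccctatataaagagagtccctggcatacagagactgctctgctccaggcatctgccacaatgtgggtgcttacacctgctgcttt
ISG15: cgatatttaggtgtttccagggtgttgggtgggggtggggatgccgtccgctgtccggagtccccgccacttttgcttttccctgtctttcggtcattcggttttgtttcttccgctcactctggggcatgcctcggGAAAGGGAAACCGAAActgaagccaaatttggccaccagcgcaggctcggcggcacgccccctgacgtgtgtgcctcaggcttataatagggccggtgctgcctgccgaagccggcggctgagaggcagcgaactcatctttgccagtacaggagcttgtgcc
HERC5: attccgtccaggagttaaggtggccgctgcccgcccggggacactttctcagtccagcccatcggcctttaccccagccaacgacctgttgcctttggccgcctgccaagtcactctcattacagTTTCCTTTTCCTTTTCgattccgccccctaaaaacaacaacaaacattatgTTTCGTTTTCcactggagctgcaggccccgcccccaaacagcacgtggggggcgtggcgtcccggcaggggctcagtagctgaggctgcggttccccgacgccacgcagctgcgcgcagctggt
HERC6: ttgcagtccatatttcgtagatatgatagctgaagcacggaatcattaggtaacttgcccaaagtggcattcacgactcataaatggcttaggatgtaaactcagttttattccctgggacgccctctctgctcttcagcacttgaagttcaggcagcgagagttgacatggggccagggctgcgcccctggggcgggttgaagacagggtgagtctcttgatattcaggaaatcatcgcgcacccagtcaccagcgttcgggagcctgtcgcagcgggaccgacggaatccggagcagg
The IFI27, IFI44L and ISG15 windows held 2 ISRE matches each, HERC5 held 3, and EPSTI1 and RSAD2 held 1 each. For a gene with more than 1 window, the window with the most ISRE matches was shown, so that choice favours matches. The other window of RSAD2 held 0. HERC6 held none, which says only that these letters are not in this window.

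A promoter window was found for 33 of the 43 genes, and 24 of them (72.7%) held an ISRE match, against 4.38% of the 27305 genes with a window and 3.99% of the 11238 tested genes with one. The letters TTCNNNGAA, the form of the gamma-activated site that STAT dimers bind, were found in 10 of the 33 (30.3%), against 9.38% of all genes with a window. The heat shock element GAANNTTCNNGAA was found in 0 of the 33 and in 0.608% of all. Both strands were searched, several windows of a gene were counted once, and a stretch could match more than 1 motif. Genes with and without the ISRE letters both fell with the inhibitor: the median log2 difference was −0.57 over 24 tested genes with a match (17 lower, 2 higher) and −0.70 over 8 tested genes without one (8 lower). A match is a description of the sequence, not a measured binding site.

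Array medians of all probe sets lay between 5.72 and 5.87 on the log2 scale, and the correlation of 2 arrays from the same group, taken over probe sets, was 0.9939 to 0.9984. Values are the authors' deposited log2 expression values, a difference is a difference of group means on that scale, and a gene is called higher or lower at a limma adjusted p under 0.05 over the 13909 genes tested. Levels of different genes are not compared with each other, since probe sets differ in brightness. Fewer expressing cells and less RNA per cell cannot be told apart in these bulk samples. Of the 41 probe sets, 9 carry, in Affymetrix naming, the suffix that marks probes shared with unrelated sequences and 4 the suffix for probes shared within a gene family. They include those of IFI27, IFITM1, IFITM2, IFITM3, IFIT3, OASL, RSAD2, GBP1 and XAF1 in the first kind, so a related transcript may add to their values.

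The interferon-stimulated genes as a set were lowest in the inhibitor cells. The median level of the 41 genes was 7.71, 7.92 and 7.67 on the inhibitor arrays, 8.67, 8.55 and 8.72 on the control arrays, 9.80, 9.73 and 9.79 at 40 °C and 9.64, 9.66 and 9.61 at 37 °C. The 4 groups of medians do not overlap. A median level depends on which probe sets lie in the middle. Between temperatures it went against the differences taken gene by gene, whose median was −0.08 for 40 °C minus 37 °C. The inhibitor group had the lowest mean of the 4 groups for 34 of the 41 genes, the control group for 4, the 40 °C group for 2 and the 37 °C group for 1. The 37 °C group had the highest mean for 22 genes, the 40 °C group for 13 and the control group for 6. How often each group was lowest or highest over all genes tested was not counted, so these counts have no background to be read against.

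**Figure D1:**
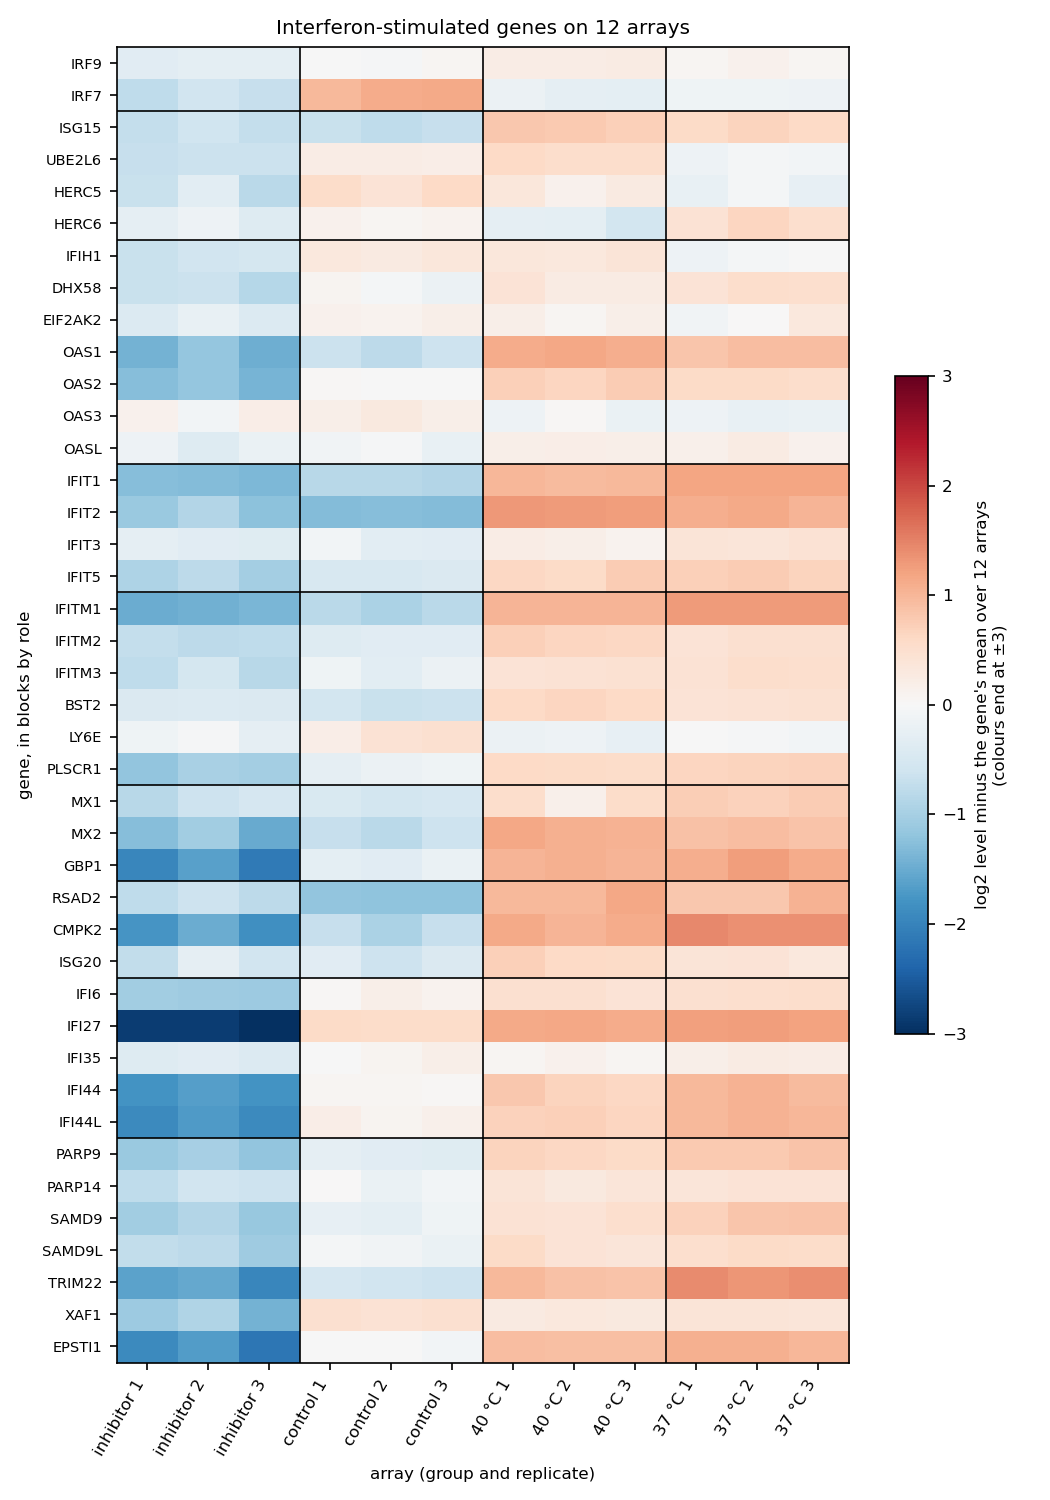
Level of each of the 41 measured interferon-stimulated genes (rows, in blocks by role) on each of the 12 arrays (columns), as the log2 level minus the gene's own mean over 12 arrays. Blue cells, below the mean, fill most of the 3 inhibitor columns; IRF7 is the row whose control cells stand furthest above its 40 °C and 37 °C cells.

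Inhibitor and control cells differed in most of these genes. With the inhibitor, 32 of the 41 were lower, where 19.6% of all genes tested were called lower, and 2 were higher (RSAD2 and BST2), where 25.6% of all genes were. The 7 that did not pass the test were ISG15, OAS3, OASL, IFIT2, IFIT3, MX1 and ISG20. At least 2-fold lower were 11 of the 41, against 2.70% of all genes, and none was at least 2-fold higher, against 0.683%. The median difference was −0.58 over the 41 genes and 0.09 over all genes tested, and single genes ranged from −3.47 (IFI27) to 0.48 (RSAD2).

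Control cells of the inhibitor experiment were set against the 40 °C cells of the temperature experiment to place their levels. Of the 41 genes, 32 were lower in control cells (37.9% of all genes tested) and 6 were higher (36.9%), namely IRF7, LY6E, HERC6, OAS3, HERC5 and XAF1. At least 2-fold lower were 14 genes, against 6.18% of all, and IRF7 alone was at least 2-fold higher, against 5.30% of all. The median difference was −0.64 over the 41 genes and 0.003 over all genes tested. Nucleofection, the GFP plasmid, sorting, culture and the set of arrays all differ between these groups and cannot be told apart. At least 1 other probe set of each of PARP14, PLSCR1 and XAF1 was called in the opposite direction, and XAF1 (0.08) and HERC5 (0.18) lost their call when arrays were centred on the median. This comparison shares its control arrays with the inhibitor comparison and its 40 °C arrays with the temperature comparison, so their values are only set side by side.

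At 40 °C against 37 °C these genes moved in both directions. Of the 41, 12 were higher at 40 °C, where 21.6% of all genes tested were higher, and 14 were lower, where 17.7% were. The remaining 15 did not pass the test, and none differed by 2-fold. The median difference was −0.08 over the 41 genes and 0.01 over all genes tested, while the median size of a difference, whatever its sign, was 0.18 over the 41 and 0.13 over all. The range ran between −0.90 for HERC6 and 0.66 for UBE2L6.

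**Figure D2:**
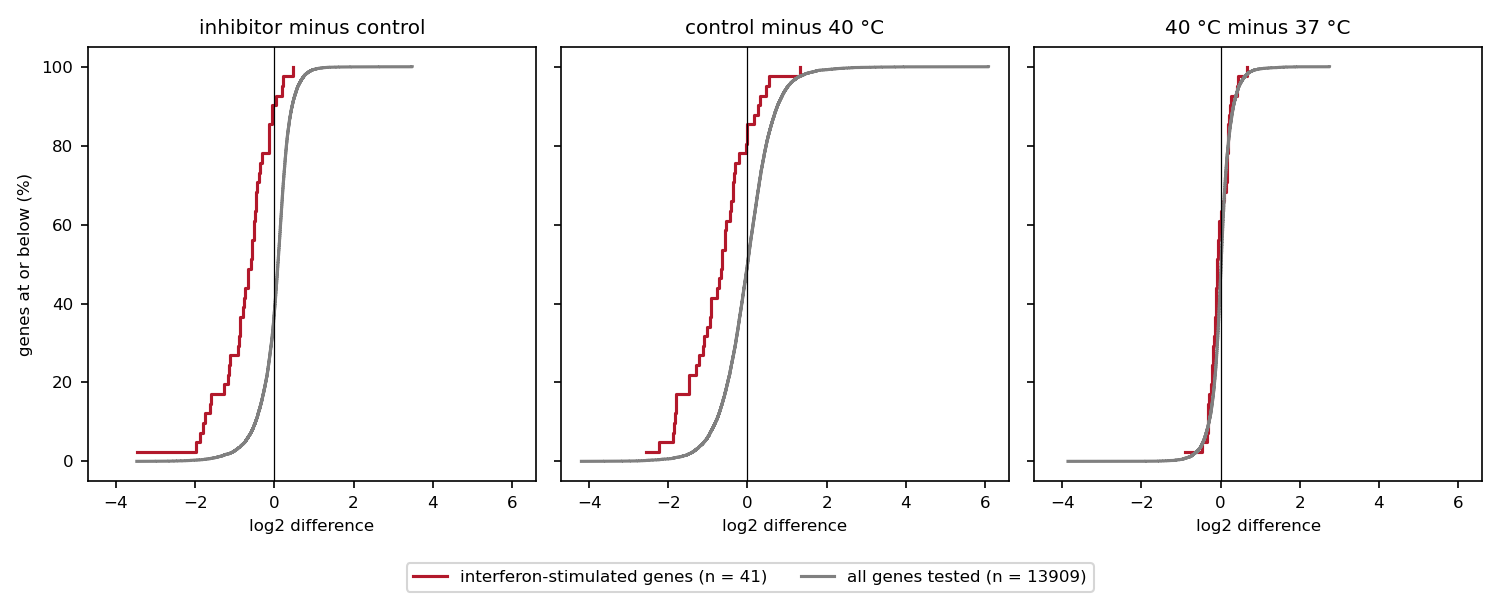
Cumulative share of genes (vertical axis, %) at or below a log2 difference (horizontal axis) for the 41 interferon-stimulated genes (red) and all 13909 genes tested (grey), in the 3 comparisons. The red line lies left of the grey line for inhibitor minus control (medians −0.58 and 0.09) and for control minus 40 °C (−0.64 and 0.003), and near it for 40 °C minus 37 °C (−0.08 and 0.01).

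The 2 measured transcription factors, IRF7 and IRF9, differed in their pattern. IRF7, which drives type I interferon genes, measured 8.99, 9.18 and 9.07 in inhibitor cells, 10.74, 10.86 and 10.89 in control cells, 9.58, 9.48 and 9.47 at 40 °C and 9.62, 9.62 and 9.60 at 37 °C. Its control values were the highest of the 4 groups and its inhibitor values the lowest, with no overlap. On the probe sets used, HERC5 and XAF1 shared that pattern. IRF7 was 3.36-fold lower with the inhibitor (log2 difference −1.75 ± 0.07, SE of the limma fit, adjusted p = 8.25e-06). It was 2.50-fold higher in control cells than at 40 °C (adjusted p = 4.38e-07), and did not pass the test between temperatures (−0.10, adjusted p = 0.127). IRF9, the DNA-binding partner of the STAT proteins, measured 9.47, 9.51 and 9.51 in inhibitor cells, 9.81, 9.78 and 9.86 in control cells, 10.03, 10.03 and 10.05 at 40 °C and 9.87, 9.93 and 9.88 at 37 °C. Its groups lay closer together, with a difference of −0.32 with the inhibitor (adjusted p = 0.00266), a call lost when its probe sets were averaged (−0.08, adjusted p = 0.273).

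The genes of the ISG15 system did not move as 1 block. ISG15, a ubiquitin-like protein that is attached to other proteins, measured 10.59, 10.70 and 10.59 in inhibitor cells, 10.63, 10.54 and 10.60 in control cells, 12.10, 12.07 and 12 at 40 °C and 11.87, 11.95 and 11.88 at 37 °C. Inhibitor and control values overlap (0.04, adjusted p = 0.65), whereas both sit below every array of the temperature experiment: control cells were 2.76-fold lower than 40 °C cells (adjusted p = 1.44e-07). UBE2L6, the E2 enzyme that carries ISG15, measured 10.07, 10.12 and 10.11 in inhibitor cells, 10.99, 10.99 and 10.95 in control cells, 11.37, 11.28 and 11.29 at 40 °C and 10.60, 10.70 and 10.67 at 37 °C. It had the largest rise at 40 °C among the 41 (1.58-fold, log2 0.66 ± 0.05, adjusted p = 5.09e-05) and was 1.84-fold lower with the inhibitor (adjusted p = 3.01e-05).

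HERC5, the main ISG15 ligase of human cells, measured 7.44, 7.80 and 7.31 in inhibitor cells, 8.67, 8.52 and 8.72 in control cells, 8.46, 8.25 and 8.39 at 40 °C and 7.89, 8.05 and 7.86 at 37 °C. HERC6, a related ligase whose mouse counterpart attaches ISG15, measured 7.39, 7.52 and 7.28 in inhibitor cells, 7.80, 7.73 and 7.77 in control cells, 7.40, 7.37 and 7.11 at 40 °C and 8.09, 8.31 and 8.17 at 37 °C. At 40 °C HERC5 was thus above its 37 °C arrays and HERC6 below them, with no overlap in either. HERC5 rose by 0.43 ± 0.07 (adjusted p = 0.00216) and HERC6 fell by 0.90 ± 0.09 (adjusted p = 0.000174). On the probe sets used, the fall of HERC6 was the largest at 40 °C among the 41, but another probe set of IFI44L also fell by 0.90. With the inhibitor both fell, HERC5 by 1.12 and HERC6 by 0.37.

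Among the cytosolic RNA sensors, IFIH1 (MDA5), which binds long double-stranded RNA, measured 8.85, 8.96 and 9.01 in inhibitor cells, 9.85, 9.80 and 9.87 in control cells, 9.86, 9.84 and 9.92 at 40 °C and 9.38, 9.46 and 9.52 at 37 °C. Control and 40 °C values overlap, the inhibitor values lie below both, and the 37 °C values lie between. IFIH1 fell by 0.90 ± 0.06 with the inhibitor (adjusted p = 5.56e-05) and rose by 0.42 ± 0.05 at 40 °C (adjusted p = 0.000495), a call lost when its probe sets were averaged (0.05, adjusted p = 0.619). DHX58 (LGP2), which modulates the RNA helicase sensors, measured 6.60, 6.64 and 6.41 in inhibitor cells, 7.36, 7.21 and 7.09 in control cells, 7.68, 7.52 and 7.52 at 40 °C and 7.68, 7.80 and 7.78 at 37 °C. EIF2AK2 (PKR), a kinase that stops translation on binding double-stranded RNA, measured 9.55, 9.74 and 9.55 in inhibitor cells, 10.09, 10.07 and 10.15 in control cells, 10.14, 10.02 and 10.15 at 40 °C and 9.86, 9.98 and 10.27 at 37 °C. Both fell with the inhibitor, DHX58 by 0.67 and EIF2AK2 by 0.49, and the other 3 groups of EIF2AK2 overlap one another.

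The OAS enzymes make the signal that activates RNase L once they bind double-stranded RNA. OAS1 measured 7.71, 7.97 and 7.67 in inhibitor cells, 8.49, 8.35 and 8.50 in control cells, 10.23, 10.29 and 10.22 at 40 °C and 9.96, 10.05 and 10.05 at 37 °C. OAS2 measured 7.81, 7.92 and 7.68 in inhibitor cells, 9.12, 9.06 and 9.06 in control cells, 9.80, 9.73 and 9.83 at 40 °C and 9.64, 9.66 and 9.60 at 37 °C. Both show the same order of groups, inhibitor lowest and 40 °C highest, without overlap. On the probe sets used, the size of each step differed. With the inhibitor OAS2 fell 2.42-fold (adjusted p = 2.54e-05) and OAS1 1.58-fold (adjusted p = 0.00107). Control cells were below 40 °C cells by 3.48-fold for OAS1 and 1.63-fold for OAS2. Over all their tested probe sets the 2 genes overlap. With the inhibitor the log2 differences were −0.68 to −0.45 for OAS1 and −1.37 to −0.35 for OAS2. In control cells against 40 °C they were −1.80 to −0.88 and −1.05 to −0.71. OAS3 was dim, at 5.32, 5.11 and 5.38 in inhibitor cells, 5.35, 5.48 and 5.35 in control cells, 5.03, 5.21 and 4.99 at 40 °C and 5.02, 4.96 and 4.97 at 37 °C, and was called only as higher in control cells than at 40 °C (0.32, adjusted p = 0.00421). OASL, a family member that enhances RNA sensing rather than making the signal, measured 7.43, 7.19 and 7.37 in inhibitor cells, 7.47, 7.54 and 7.36 in control cells, 7.76, 7.78 and 7.76 at 40 °C and 7.72, 7.82 and 7.70 at 37 °C, with overlap inside each experiment.

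The IFIT proteins bind viral RNA or block its translation. IFIT1 measured 8.12, 8.10 and 8.04 in inhibitor cells, 8.57, 8.55 and 8.51 in control cells, 10.38, 10.35 and 10.36 at 40 °C and 10.58, 10.58 and 10.58 at 37 °C. IFIT2 measured 6.77, 7.01 and 6.66 in inhibitor cells, 6.59, 6.61 and 6.58 in control cells, 9.19, 9.15 and 9.13 at 40 °C and 8.97, 9.03 and 8.90 at 37 °C. IFIT3 measured 8.41, 8.34 and 8.30 in inhibitor cells, 8.59, 8.35 and 8.32 in control cells, 8.89, 8.85 and 8.78 at 40 °C and 9.05, 9.04 and 9.11 at 37 °C. For all 3 the arrays of the inhibitor experiment lie below those of the temperature experiment. The gap was widest for IFIT2, 5.91-fold lower in control cells than at 40 °C (adjusted p = 9.26e-09). On the probe sets used, IFIT2 had the largest difference of that comparison among the 41 (−2.56), but another probe set of GBP1 differed by −3.16. Within the inhibitor experiment IFIT1 fell by 0.46 ± 0.06 (adjusted p = 0.000571), while IFIT2 (0.22 ± 0.09, adjusted p = 0.0904) and IFIT3 (−0.07 ± 0.09, adjusted p = 0.527) did not pass. The IFIT2 inhibitor values lie above the control values without overlap, and the gene passed the test when inhibitor replicate 3 was left out (0.30, adjusted p = 0.0326). IFIT5, also an RNA-binding member, fell by 0.45 with the inhibitor and was 2.18-fold lower in control cells than at 40 °C.

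Of the membrane proteins, IFITM1, IFITM2 and IFITM3 hinder the fusion of virus and cell membranes. IFITM1 measured 9.20, 9.24 and 9.32 in inhibitor cells, 9.88, 9.75 and 9.88 in control cells, 11.72, 11.71 and 11.70 at 40 °C and 11.96, 11.96 and 11.96 at 37 °C. IFITM2 measured 10.93, 10.87 and 10.90 in inhibitor cells, 11.27, 11.31 and 11.31 in control cells, 12.36, 12.30 and 12.27 at 40 °C and 12.06, 12.14 and 12.13 at 37 °C. IFITM3 measured 10.24, 10.48 and 10.17 in inhibitor cells, 10.89, 10.70 and 10.83 in control cells, 11.42, 11.44 and 11.46 at 40 °C and 11.44, 11.53 and 11.51 at 37 °C. All 3 fell with the inhibitor, by 0.58, 0.40 and 0.51 in that order, and IFITM1 was 3.66-fold lower in control cells than at 40 °C. Their sequences are alike, so signal of one on the probes of another cannot be told apart here.

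BST2 (tetherin), which holds budding virus at the cell surface, measured 11.96, 11.98 and 11.96 in inhibitor cells, 11.85, 11.73 and 11.74 in control cells, 13.00, 13.03 and 12.98 at 40 °C and 12.79, 12.83 and 12.84 at 37 °C. It was higher with the inhibitor by 0.19 ± 0.06 (adjusted p = 0.0312), without overlap. That call was lost when any of 5 arrays was left out: inhibitor replicate 1 (0.20), 2 (0.19) or 3 (0.20), or control replicate 2 (0.17) or 3 (0.18). PLSCR1, a phospholipid scramblase, and LY6E, a surface protein that acts on virus entry, both fell with the inhibitor, by 0.86 and 0.51. LY6E was higher in control cells than at 40 °C (0.56, adjusted p = 0.000268).

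The GTPases MX1 and MX2 trap viral nucleocapsids. MX1 measured 4.35, 4.56 and 4.67 in inhibitor cells, 4.71, 4.63 and 4.66 in control cells, 5.70, 5.33 and 5.72 at 40 °C and 5.92, 5.86 and 5.94 at 37 °C. The MX1 values of the inhibitor experiment are near the filter on low signal (4.48), which limits what its differences can show. MX2 measured 6.81, 7.03 and 6.58 in inhibitor cells, 7.39, 7.28 and 7.45 in control cells, 9.25, 9.14 and 9.13 at 40 °C and 8.96, 9.01 and 8.94 at 37 °C. MX2 fell by 0.57 ± 0.12 with the inhibitor (adjusted p = 0.00557) and was 3.48-fold lower in control cells than at 40 °C. GBP1, a guanylate-binding protein that attacks pathogen vacuoles and responds strongly to interferon gamma, measured 4.88, 5.20 and 4.73 in inhibitor cells, 6.54, 6.50 and 6.65 in control cells, 7.85, 7.90 and 7.85 at 40 °C and 7.93, 8.10 and 7.95 at 37 °C. It was 3.09-fold lower with the inhibitor (adjusted p = 6.22e-05), and all 4 of its other tested probe sets were lower too, the differences of its 5 probe sets lying between −1.63 and −0.91.

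Of the nucleotide and RNA enzymes, RSAD2 (viperin), which makes a chain-terminating nucleotide, was the clearest exception to the falls with the inhibitor. It measured 6.67, 6.82 and 6.64 in inhibitor cells, 6.25, 6.22 and 6.22 in control cells, 8.41, 8.41 and 8.59 at 40 °C and 8.23, 8.23 and 8.47 at 37 °C. Every inhibitor array lay above every control array (0.48 ± 0.07, adjusted p = 0.000974), and both lay far below the temperature experiment, control cells by 4.72-fold against 40 °C (adjusted p = 4.19e-08). The other tested probe set of RSAD2 differed by 0.30 with the inhibitor and was not called. CMPK2, a mitochondrial nucleotide kinase encoded beside RSAD2, measured 6.95, 7.23 and 6.89 in inhibitor cells, 8.02, 7.77 and 8.04 in control cells, 9.85, 9.73 and 9.83 at 40 °C and 10.15, 10.08 and 10.10 at 37 °C. It fell by 0.92 ± 0.11 with the inhibitor (adjusted p = 0.000573), although neither of its other 2 tested probe sets was called, the differences ranging up to 0.19. ISG20, an exonuclease, was not called with the inhibitor (−0.06) and rose by 0.26 at 40 °C.

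The IFI genes all fell with the inhibitor, 5 of 5, where 19.6% of all genes tested were lower, with a median of −1.79. IFI27, a small mitochondrial protein linked to cell death, measured 7.67, 7.67 and 7.48 in inhibitor cells, 11.10, 11.07 and 11.07 in control cells, 11.65, 11.68 and 11.63 at 40 °C and 11.76, 11.77 and 11.74 at 37 °C. The inhibitor arrays stand far below the other 9. IFI27 was 11.1-fold lower with the inhibitor (log2 difference −3.47 ± 0.07, adjusted p = 9.14e-07), the largest change of any of the 41 in any of the 3 comparisons, and its other tested probe set was lower by 2.80. IFI6, a related mitochondrial protein that protects cells from death, measured 11.74, 11.73 and 11.69 in inhibitor cells, 12.82, 12.96 and 12.89 in control cells, 13.27, 13.28 and 13.20 at 40 °C and 13.27, 13.30 and 13.31 at 37 °C. IFI6 was 2.25-fold lower with the inhibitor (adjusted p = 1.78e-05), and its 2 temperatures overlap.

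IFI44, a cytoplasmic protein that restrains some viruses, measured 7.60, 7.74 and 7.60 in inhibitor cells, 9.45, 9.45 and 9.42 in control cells, 10.18, 10.04 and 10.01 at 40 °C and 10.35, 10.43 and 10.32 at 37 °C. Its neighbour and paralogue IFI44L measured 6.27, 6.49 and 6.27 in inhibitor cells, 8.38, 8.26 and 8.34 in control cells, 8.88, 8.89 and 8.82 at 40 °C and 9.15, 9.22 and 9.17 at 37 °C. Both rise in the same order across inhibitor, control, 40 °C and 37 °C without overlap. With the inhibitor they differed by −1.79 and −1.98 (3.47-fold and 3.95-fold lower), and at 40 °C by −0.29 and −0.32. The other 2 tested probe sets of IFI44L fell more at 40 °C, by 0.90 and 0.82, so the size of its fall depends on the probe set. IFI35, which modulates innate signalling, fell by 0.46 with the inhibitor.

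The last block holds the PARP family members PARP9 and PARP14, the translation inhibitors SAMD9 and SAMD9L, TRIM22, XAF1 and EPSTI1. All 7 fell with the inhibitor, where 19.6% of all genes tested were lower. On the probe sets used, the differences lay between −1.88 (EPSTI1) and −0.56 (PARP14). Other probe sets reached −1.98 for PARP14 and −2.14 for XAF1, so this order depends on the probe set. EPSTI1, named for epithelial-stromal interaction and also induced by interferon, measured 6.53, 6.76 and 6.27 in inhibitor cells, 8.43, 8.42 and 8.36 in control cells, 9.35, 9.33 and 9.33 at 40 °C and 9.51, 9.50 and 9.42 at 37 °C. XAF1, which promotes apoptosis by binding the inhibitor protein XIAP, measured 8.74, 8.93 and 8.42 in inhibitor cells, 10.32, 10.28 and 10.32 in control cells, 10.11, 10.15 and 10.13 at 40 °C and 10.22, 10.22 and 10.19 at 37 °C. The inhibitor arrays of both genes lie below all others; EPSTI1 was 3.69-fold lower (adjusted p = 3.31e-05) and XAF1 3.05-fold lower (adjusted p = 7.2e-05). All 6 other tested probe sets of XAF1 were lower with the inhibitor.

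TRIM22, a ubiquitin ligase that restricts several viruses, measured 7.09, 7.16 and 6.74 in inhibitor cells, 8.19, 8.13 and 8.07 in control cells, 9.67, 9.57 and 9.56 at 40 °C and 10.11, 10.02 and 10.10 at 37 °C. SAMD9 measured 7.70, 7.87 and 7.60 in inhibitor cells, 8.51, 8.46 and 8.61 in control cells, 9.17, 9.15 and 9.25 at 40 °C and 9.44, 9.58 and 9.61 at 37 °C. Both rise through the 4 groups in that order without overlap. TRIM22 fell by 1.13 with the inhibitor and by 0.48 ± 0.05 at 40 °C (adjusted p = 0.000247), but 2 of its 5 other tested probe sets were called higher at 40 °C, up to 0.33, so its direction between temperatures depends on the probe set.

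**Figure D3:**
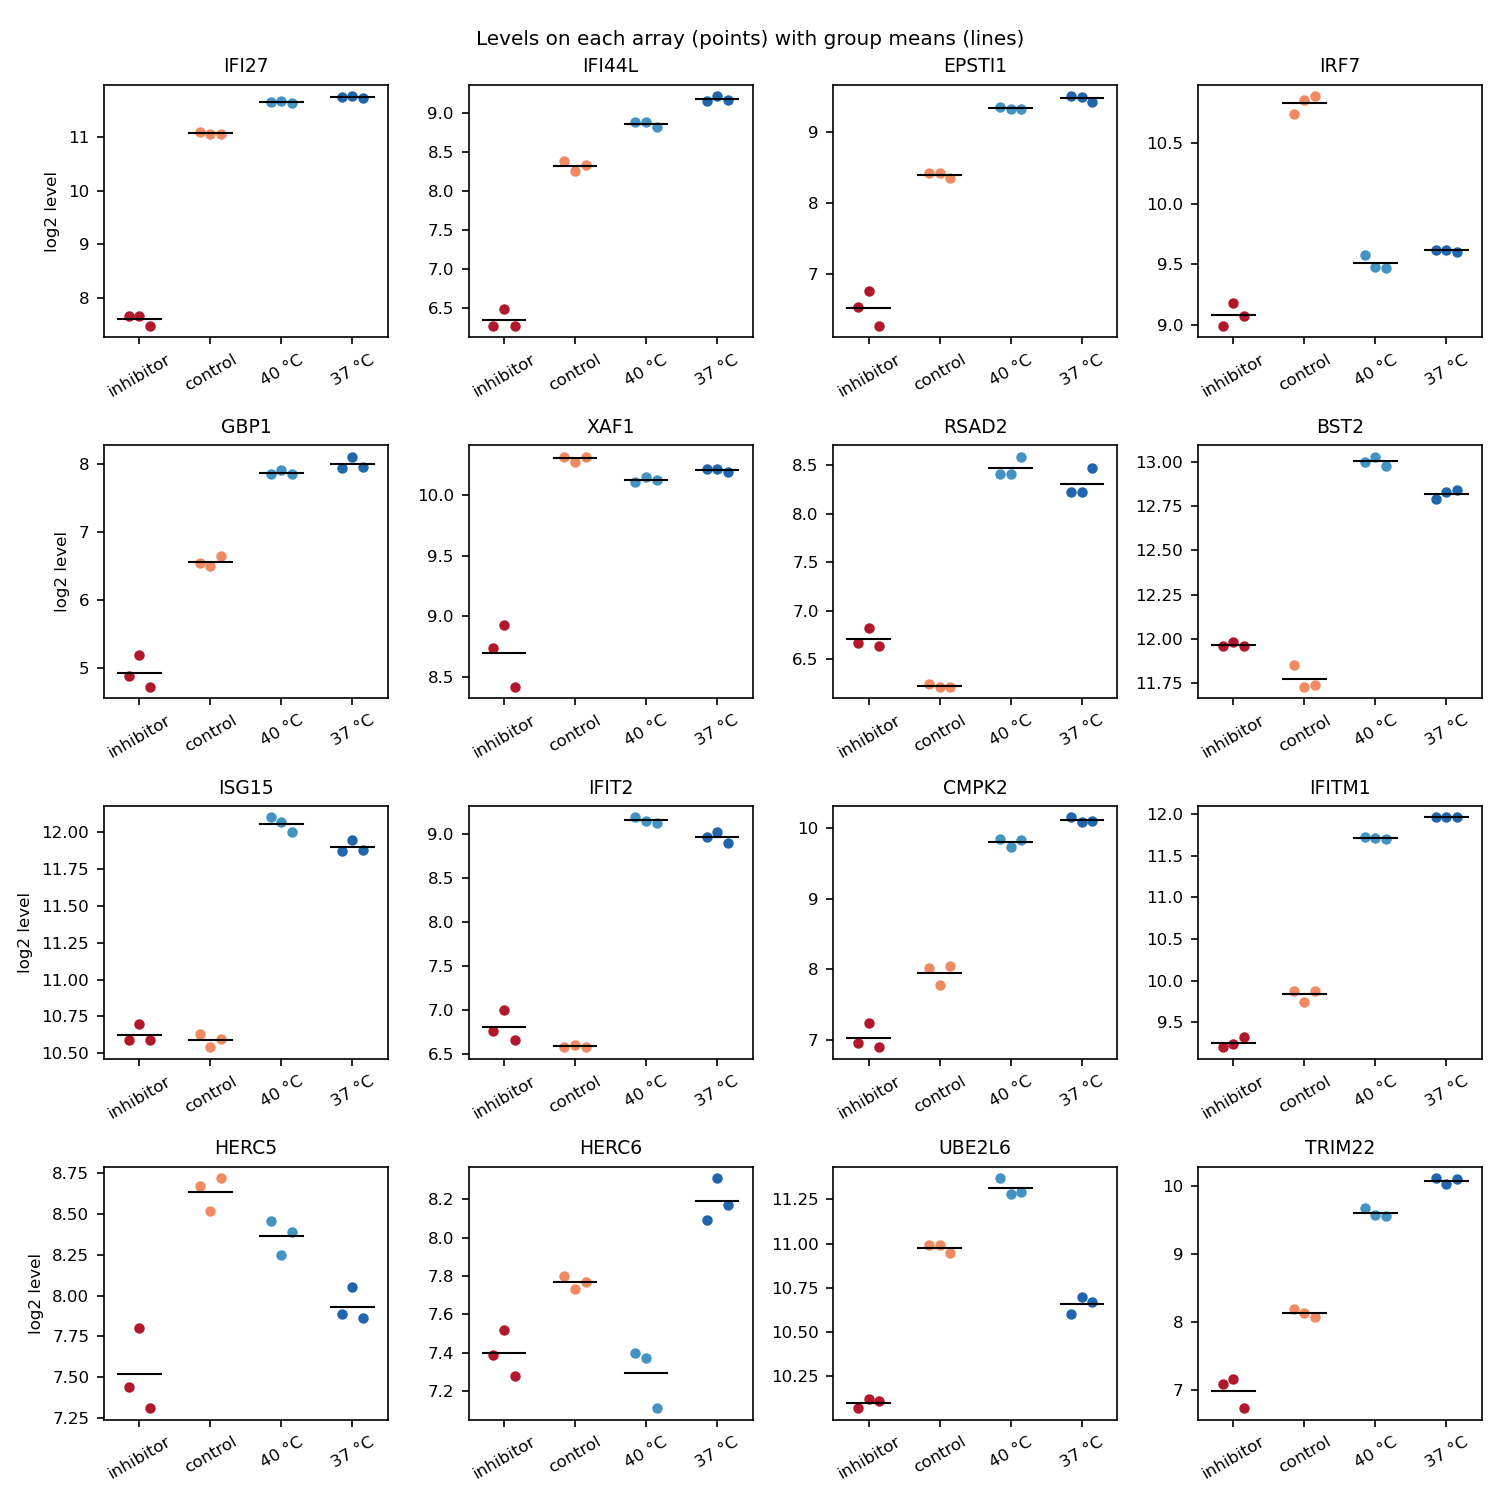
Log2 level (vertical axes, a scale for each gene) of 16 of the genes on each array (points) with the group mean (line), in inhibitor, control, 40 °C and 37 °C cells. IFI27 inhibitor values sit near 7.6 against 11.1 in control cells; RSAD2, BST2 and IFIT2 are the panels in which inhibitor points lie above control points; UBE2L6 and HERC6 are apart in opposite directions between 40 °C and 37 °C.

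**Figure D4:**
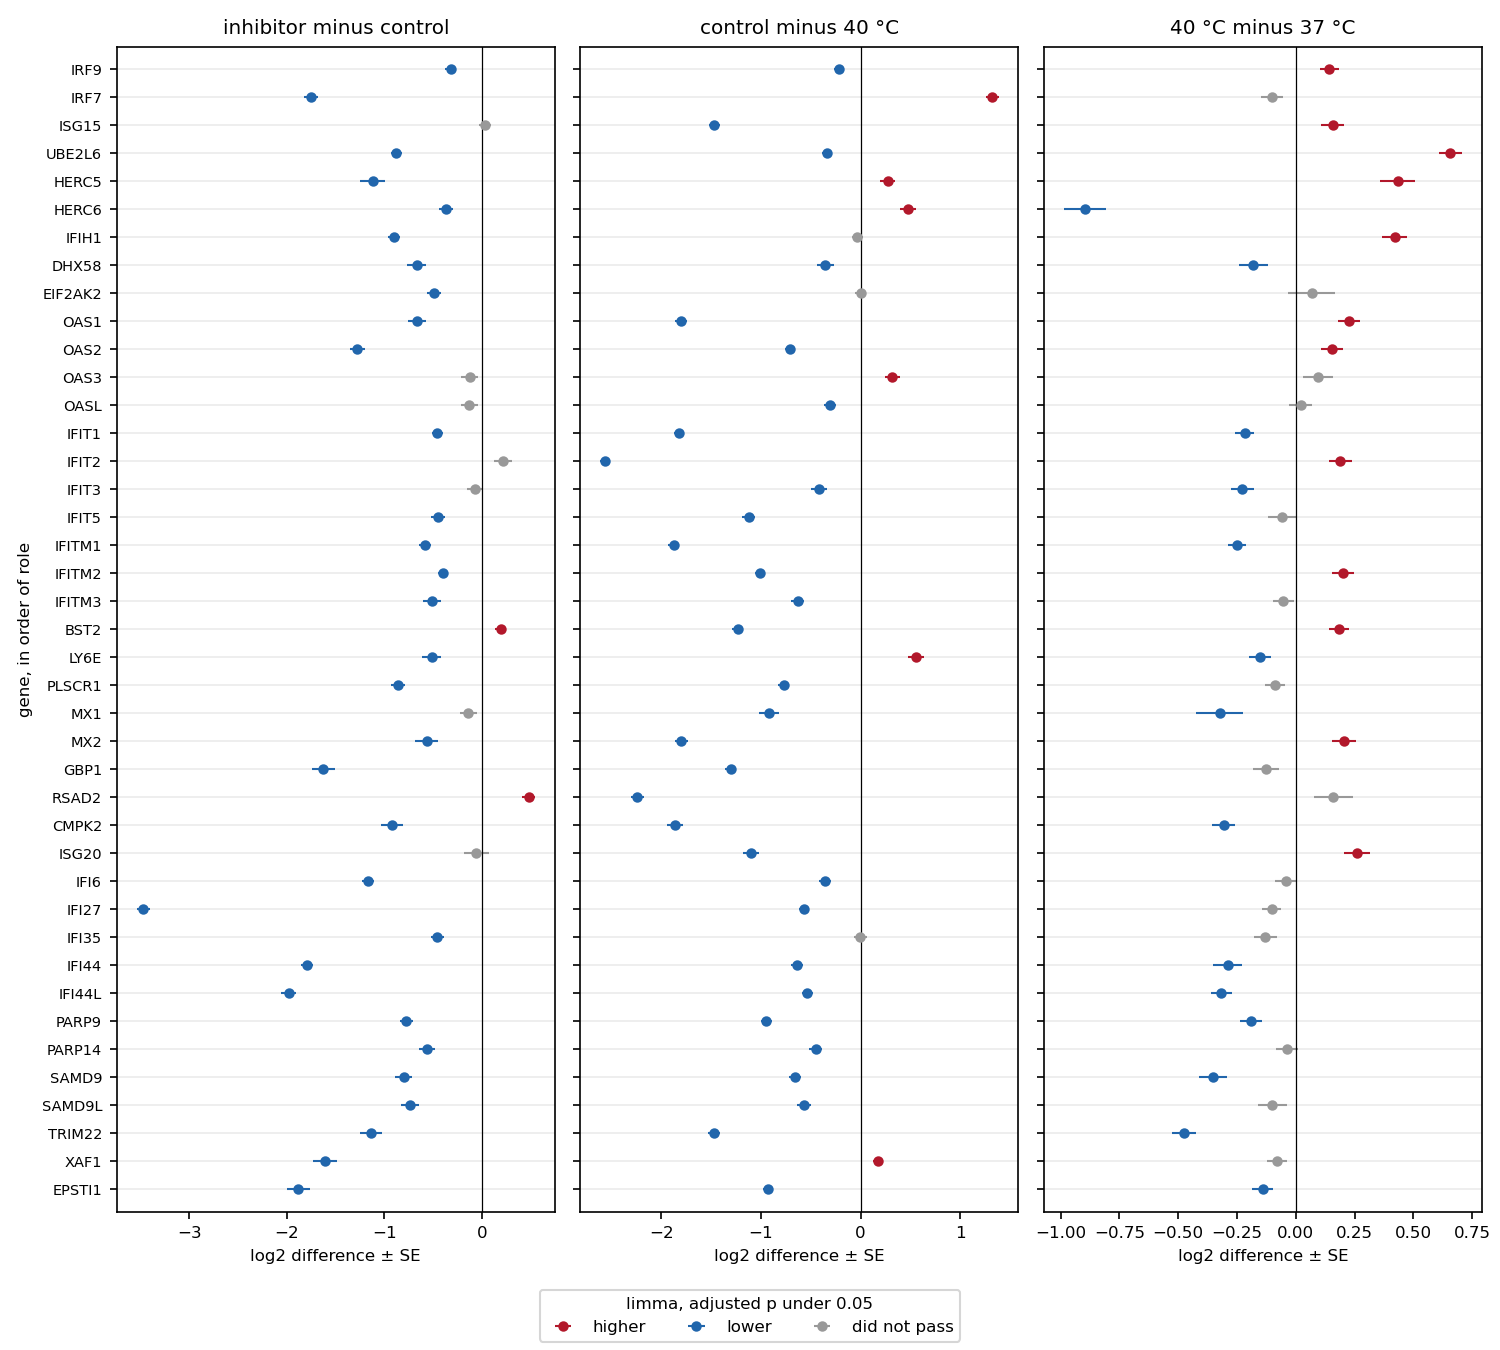
Log2 difference (points) with the SE of the limma fit (bars) for the 41 genes, in order of role, in the 3 comparisons, each with its own horizontal axis. Blue marks genes called lower, red genes called higher and grey genes that did not pass; 32 are blue and 2 red for inhibitor minus control, 32 and 6 for control minus 40 °C, and 14 and 12 for 40 °C minus 37 °C.

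The temperature and inhibitor comparisons share no array. Of the 12 genes higher at 40 °C, 8 were lower with the inhibitor, 1 was higher (BST2) and 3 did not pass. Of the 14 genes lower at 40 °C, 12 were lower with the inhibitor and 2 did not pass. Of the 15 genes not called at 40 °C, 12 were lower with the inhibitor, 1 was higher (RSAD2) and 2 did not pass. Most genes were thus lower with the inhibitor whatever their call at 40 °C, as among the 41 as a whole (32 lower). Over all genes tested, 19.6% were lower with the inhibitor, and their split by the call at 40 °C was not counted.

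Several of these genes lie beside a relative on the chromosome, and 11 neighbouring pairs were compared. With the inhibitor, CMPK2 (−0.92) and RSAD2 (0.48), on chromosome 2, were called in opposite directions, and it was the only pair of the 11 called so in that comparison. Up to 165 bases of a CMPK2 promoter window are shared with a window of RSAD2's other annotated start, the 2 genes running in opposite directions. At 40 °C, 4 pairs were called in opposite directions: HERC5 (0.43) and HERC6 (−0.90) on chromosome 4, IFIT2 (0.19) and IFIT3 (−0.23) on chromosome 10, IFITM2 (0.20) and IFITM1 (−0.25) on chromosome 11, and MX2 (0.20) and MX1 (−0.32) on chromosome 21. OAS3 went against OAS1 and OAS2, on chromosome 12, in control cells against 40 °C (0.32, against −1.80 and −0.71). The pair IFI44L and IFI44, on chromosome 1, was called lower in all 3 comparisons. No test of the difference between neighbours was run. How often neighbours are called in opposite directions over all genes was not counted, so these counts have no background. The calls of IFIT2, MX1 and MX2 at 40 °C were lost when certain single arrays were left out.

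**Figure D5:**
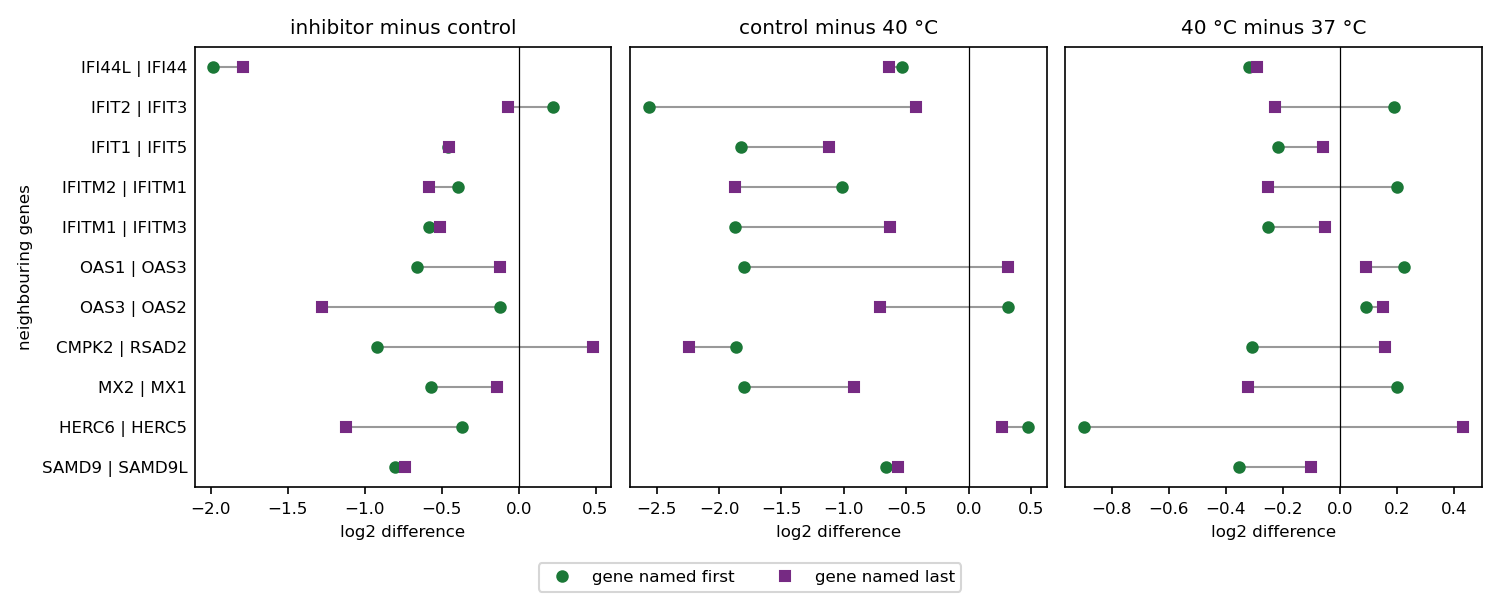
Log2 differences of neighbouring genes (1 row per pair; green circle, the gene named first; purple square, the gene named last) in the 3 comparisons, each with its own horizontal axis. CMPK2 and RSAD2 lie on opposite sides of 0 with the inhibitor (−0.92 and 0.48), and HERC6 and HERC5 at 40 °C (−0.90 and 0.43).

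The genes around this response were read from the same fits. Of 21 interferon genes listed, IFNA1, IFNA13, IFNL2 and IFNL3 had no probe set with a single symbol and were not measured. Of the others, only IFNA14 and IFNL1 passed the filter on low signal, and neither was called with the inhibitor or between temperatures. IFNL1 was called higher in control cells than at 40 °C (0.54), where 36.9% of all genes were. IFNL1 averaged 4.81 in inhibitor cells, 4.74 in control cells, 4.20 at 40 °C and 4.37 at 37 °C, so that both temperature groups lay below the filter value of 4.48. Of 9 receptor and JAK-STAT genes tested, 3 rose and 2 fell with the inhibitor (25.6% and 19.6% of all genes), shares near those of all genes. The receptor chains IFNGR2 (0.57), IFNAR2 (0.46) and IFNGR1 (0.19) rose, and the kinase JAK2 (−0.73) and the shared receptor chain IL10RB (−0.27) fell. At 40 °C both chains of the type I receptor fell, IFNAR1 by 0.48 and IFNAR2 by 0.26, and TYK2 rose by 0.22. Of 5 further interferon regulatory factors none was called with the inhibitor, and at 40 °C IRF1 rose by 0.34 (adjusted p = 0.0039). Control cells had less IRF8 than 40 °C cells (−1.27) and more IRF3 (1.02).

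Of 12 negative regulators of interferon signalling, 5 rose and 1 fell with the inhibitor (25.6% and 19.6% of all genes). SOCS3, which blocks JAK kinases, rose by 0.85 (5.82 ± 0.11 in inhibitor cells, 4.97 ± 0.18 in control cells, SD, n = 3 each), and the corepressor TRIM28 by 0.70. Of 18 nucleic acid sensors and adaptors, 7 rose and 4 fell, against the same shares of all genes. IFI16, a DNA sensor that is itself interferon-induced, fell by 1.52 (8.86 ± 0.15 in inhibitor cells, 10.38 ± 0.06 in control cells), and RIGI, the sensor related to IFIH1, by 0.74. At 40 °C the largest change in that list was TLR8, an endosomal RNA receptor, which was lower by 1.73 (5.07 ± 0.09 at 40 °C, 6.79 ± 0.05 at 37 °C).

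A list of further interferon-induced genes held 47 that were tested, of which 21 were lower and 5 higher with the inhibitor (19.6% and 25.6% of all genes), with a median of −0.17. The falls included the nucleotide enzyme GMPR (−1.75), the immunoproteasome subunit PSMB9 (−0.78), the tRNA synthetase WARS1 (−0.97) and the helicase DDX60 (−0.79), and the antiviral zinc finger protein ZC3HAV1 rose by 0.73. CXCL10, a chemokine and a common marker of the response, was higher with the inhibitor by 1.20 (4.75 ± 0.25 in inhibitor cells, 3.55 ± 0.09 in control cells), but the control level lies below the filter value of 4.48. At 40 °C the list split evenly, 14 higher and 14 lower (21.6% and 17.7% of all genes), with GBP2 (−0.99) and DDX60 (−0.72) among the falls and TMEM140 (0.75) and PML (0.44) among the rises.

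Other measures moved with the inhibitor. The summed level of 11 measured macrophage and monocyte markers was 14.02 to 14.05 in inhibitor cells and 14.49 to 14.54 in control cells. Levels were summed on the linear scale, so bright genes weigh most. Of the 11, 8 were lower with the inhibitor and 1 (CSF1R) higher (19.6% and 25.6% of all genes). At the 2 temperatures the sum was 14.43 to 14.51 at 40 °C and 14.27 to 14.31 at 37 °C. Summed lymphocyte markers lay between 8.36 and 8.47 in inhibitor cells and between 7.86 and 7.99 in control cells. Of the 4 tested, NKG7 was higher (7.46 in inhibitor cells, 6.49 in control cells), where 25.6% of all genes were. The other 3 (CD3E, CD2 and CD79A) were not called. The poly-A spike controls averaged 5.87 ± 0.32 in inhibitor cells, 7.22 ± 0.37 in control cells, 7.96 ± 0.04 at 40 °C and 7.87 ± 0.03 at 37 °C. Probe sets for 18S ribosomal RNA averaged 10.14 ± 0.41, 12.75 ± 0.14, 10.79 ± 0.11 and 11.07 ± 0.17 in the same order. The excess of the 3′ over the 5′ probe set of ACTB, a sign of RNA or labelling quality, was 2.70 ± 0.16, 2.44 ± 0.09, 1.58 ± 0.22 and 1.55 ± 0.04 in that order. The same excess for GAPDH was 0.72 ± 0.09, 1.04 ± 0.04, 0.44 ± 0.10 and 0.38 ± 0.02, so that the ACTB excess was larger and the GAPDH excess smaller in inhibitor cells than in control cells. Their part in the results was not tested beyond a fit with the spike level as a covariate. In that fit 6 of the 41 genes stayed lower with the inhibitor (IFI27, IFI44L, IFI44, IRF7, IFIH1 and IFI6), against 188 of all genes, and 0 were higher. The median difference was −0.49, against −0.58 without the covariate. Spike levels did not overlap between the groups (5.50 to 6.08 on inhibitor arrays, 6.98 to 7.64 on control arrays). The fit therefore separates spike level from group poorly, and a lost call does not tell which of them a difference goes with.

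Calls between temperatures rested on small differences. Of the 26 genes called, 16 kept their call whichever array was left out, and all 26 kept their direction. IRF9 lost its call without any array except 37 °C replicate 2 (0.13 to 0.15), and OAS2 without any except 40 °C replicate 2 (0.13 to 0.17). ISG15 lost it without 40 °C replicate 1 (0.14) or 2 (0.15) or 37 °C replicate 1 (0.14) or 3 (0.15). EPSTI1 lost it without any array except 37 °C replicate 3 (−0.15 to −0.12), LY6E without 40 °C replicate 1 or 3 or 37 °C replicate 1 or 2 (−0.16 to −0.13), and DHX58 without replicate 2 or 3 of either temperature (−0.17 to −0.15). MX1 lost it without any single 37 °C array (−0.35 to −0.31), and its difference was −0.20 without 40 °C replicate 2. IFIT2 lost it without 40 °C replicate 1 (0.17) or 37 °C replicate 1 (0.19) or 3 (0.16), and MX2 (0.19) and PARP9 (−0.17) lost it without 37 °C replicate 3. RSAD2 gained a call without 37 °C replicate 3 (0.24) and SAMD9L without 40 °C replicate 1 (−0.16). With the spike level as a covariate 6 calls remained, those of HERC6, UBE2L6, TRIM22, IFIH1, IFI44 and IFI44L. Spike levels did not overlap between the temperatures either (7.92 to 7.98 at 40 °C, 7.85 to 7.90 at 37 °C).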

How the data were processed

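Per the labels' protocols, total RNA extracted with Trizol was biotin-labelled and hybridised to PrimeView Human arrays. The authors deposited log2 expression values for 49395 probe sets on 12 arrays; that scale was inferred from their range. Not given in the sources used here are the background correction, normalization, software and build. The platform's gene table named 44994 probe sets with 1 symbol and 1832 with several, and left 2473 besides controls unnamed. Each gene is its probe set with the highest mean over 12 arrays among those with 1 symbol, and genes with a mean at or above the 30th percentile of probe sets outside the controls (log2 4.48) entered the tests.

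Each comparison (inhibitor minus control, control minus 40 °C, 40 °C minus 37 °C) was fitted alone, two-sided and with no block, by lmFit and eBayes of limma 3.58.1 (R 4.3.3), with Benjamini-Hochberg adjustment over 13909 genes and a threshold of 0.05. With 3 arrays against 3, the smallest p of an exact permutation test is 0.1, so none was run. Precision is limited by the number of arrays. The procedure was tested on simulated data. Python 3.11.15 with matplotlib 3.10.9, pandas 2.3.3 and NumPy 2.4.6 made the figures.

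The genes described and the lists around them were chosen with earlier results of these data known. Every one of the 43 could be named. Values per array are given for a set of well-known members and, per comparison, for the 8 with the largest difference among those called and with no overlap of the groups. From the other lists, up to 6 called genes by p were eligible per comparison. Alternatives were a joint fit, the replicate number as a block, other filters, the mean of probe sets or every probe set, quantile normalization, centring, a trended robust fit, array weights, the poly-A spike level as a covariate and leaving out each array. Some genes of the lists are not reported here.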

Additional observations from a re-analysis of the deposited data

How the results depend on the processing

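Under alternatives, no called gene among the 41 changed direction in the temperature or inhibitor comparison. In control cells against 40 °C, the mean of probe sets turned PARP14 to 0.051, SAMD9L to 0.165 and EIF2AK2, not called before, to 0.125 (adjusted p = 0.0469). With the inhibitor the count of lower genes among the 41 was 31 to 34 in the other fits of 1 value per gene, except that with the spike covariate, and leaving out an array left 32 lower and 1 to 2 higher. One gene was higher, RSAD2, with the replicate block, no filter, the mean of probe sets or centring, against 2 in the analysis above.

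Testing every probe set, which enlarges the table, gave 6302 higher and 5582 lower at 40 °C (24 and 26 of these genes), 6756 and 6965 with the inhibitor (76 lower of these genes), and 12180 and 11404 in control cells against 40 °C (13 and 76, median −0.71). Array weights gave 5527 genes higher with the inhibitor. The spike covariate left 958 higher and 1320 lower at 40 °C (2 and 4 of these genes), 59 and 188 with the inhibitor (0 and 6), and 3 of these genes higher in control cells against 40 °C (median −0.741); the cause was not tested. Centring moved that median to −0.73.

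The replicate number as a block kept 33 of the 34 calls with the inhibitor, 20 of the 26 at 40 °C and all 38 in control cells against 40 °C. Same-numbered arrays did not deviate together in every pair (correlations of −0.604 to −0.154 with the inhibitor and −0.133 to 0.227 between temperatures), and few arrays correlated best with their own number, so the numbers are not taken as pairs. Signal near the filter limits MX1, OAS3 and GBP1.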
